A study of Mus musculus with 24 samples.

Results

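Hepcidin, the liver hormone that sets how much iron enters the blood, and the genes through which liver cells take up, store, export and sense iron were described in mouse livers of 3 genotypes under 4 treatments. The set held 10 of the 13319 genes named on the array: Hamp, Hamp2, Bmp6, Id1, Tfr2, Tfrc, Trf, Scara5, Fth1 and Slc40a1. All probe sets annotated to these genes were taken, whatever their values: 21 of the 22690 probe sets on the array. Of the 21, 18 were not control probe sets, and 17 passed a filter on dim values and were tested, of 14763 tested over the whole array.

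The study examined the constitutive androstane receptor (CAR, encoded by Nr1i3), a nuclear receptor of hepatocytes that responds to drugs and other foreign compounds. It used 24 female mice on a mixed C57BL/6x129Sv background, fed normal chow, with 1 array per mouse and 2 mice in each of 12 groups. Human CAR mice (labelled CAR.AH) lacked both copies of mouse CAR (mCAR-/-) and had a transgene of human CAR under the albumin promoter of the mouse, which drives it in hepatocytes. Knockout mice (labelled CAR.KO) were mCAR-/- with no transgene. Wild-type mice had mouse CAR only. Each genotype received TCPOBOP, a potent ligand of mouse CAR, as a single injection of 3 mg/kg on the first of 3 days with corn oil afterwards. Other mice of each genotype received phenobarbital (spelled phenobarbitol in the labels), which activates CAR of both species, at 100 mg/kg/day, or CITCO, which the labels give as specific to human CAR, at 30 mg/kg/day. The control mice of each genotype received corn oil, the vehicle. Injections were intraperitoneal on 3 days, and livers were taken 6 hours after the last. The sources used here give no age of the mice, no litters and no hybridisation dates. The transgenic line was crossed to knockout mice over 2 breeding cycles, so genotype and breeding line cannot be told apart.

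Hepcidin is secreted by hepatocytes and binds ferroportin (Slc40a1), the only known iron exporter of vertebrate cells, which is then degraded, so that macrophages and gut cells release less iron. Its transcription is raised by iron through bone morphogenetic protein (BMP) ligands, chiefly Bmp6 from liver endothelium, their receptors and SMAD proteins, and by inflammation through interleukin 6 and STAT3. Iron reaches liver cells on transferrin through the transferrin receptor Tfrc, and on ferritin, which the scavenger receptor Scara5 can bind. Mice, unlike humans, have a pair of hepcidin genes, of which Hamp encodes the peptide that regulates iron and Hamp2 encodes a related peptide.

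Hamp (chr7:30942368-30944029) and Hamp2 (chr7:30922372-30924181, both GRCm38.p6) lie beside each other on chromosome 7, and their annotated starts are 19848 bases apart. The 300 bases around each start, 250 before and 50 after it, are shown because the paired promoters are near copies. Both windows are on the minus strand, at chr7:30943980-30944279 for Hamp and chr7:30924132-30924431 for Hamp2, from RefSeq on GRCm38.p6. Capitals mark the letters GGCGCC, the core of the BMP response element, with the stretch of Hamp2 aligned to it, and a match to TTCNNNGAA, the letters of a STAT site.
Hamp: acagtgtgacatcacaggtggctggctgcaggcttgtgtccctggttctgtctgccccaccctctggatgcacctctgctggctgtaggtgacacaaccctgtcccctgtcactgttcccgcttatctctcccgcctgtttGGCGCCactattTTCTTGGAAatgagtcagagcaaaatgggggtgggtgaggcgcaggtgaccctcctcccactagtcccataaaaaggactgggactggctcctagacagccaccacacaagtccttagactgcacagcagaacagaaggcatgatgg
Hamp2: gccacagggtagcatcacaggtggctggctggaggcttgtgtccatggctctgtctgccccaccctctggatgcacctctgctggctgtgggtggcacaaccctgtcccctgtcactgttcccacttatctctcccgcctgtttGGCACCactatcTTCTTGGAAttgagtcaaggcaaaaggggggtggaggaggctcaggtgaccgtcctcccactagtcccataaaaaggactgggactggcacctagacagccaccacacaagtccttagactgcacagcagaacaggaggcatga

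Of 297 aligned bases, 276 were identical (92.9%). GGCGCC was found in the Hamp window, 109 to 104 bases before the start, on both strands since it reads the same on each. The aligned stretch of Hamp2, which begins 106 bases before its start, differs by G4A, with the base of Hamp first and positions counted from 1 at the 5′ end of the 6 letters. The match TTCTTGGAA was in both windows, 97 to 89 bases before the start of Hamp and 94 to 86 before that of Hamp2. Over all 32851 promoter windows of that length, 11.9% held GGCGCC and 8.3% held TTCNNNGAA on either strand. A match of letters is a description of the window and not a site in use.

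Hamp had 2 probe sets, 1419196_at and 1419197_x_at, and Hamp2 had 1436643_x_at and 1456289_at. The suffix x_at is given by the manufacturer to probe sets with probes that can also match other transcripts, so 1419197_x_at and 1436643_x_at may each read both hepcidins. Probe sequences were not used here, and the share of cross-binding was not measured. A plain suffix does not by itself exclude probes shared between genes this alike. The other members had 3 ordinary and 3 control probe sets for Tfrc (chr16:32608896-32632794), 2 for Scara5 (chr14:65666403-65764826), 2 for Tfr2 (chr5:137569822-137588081), 2 for Fth1 (chr19:9980600-9985111) and 2 for Slc40a1 (chr1:45908070-45926532). Bmp6 (chr13:38345716-38500314) and Id1 (chr2:152736251-152737410) had 1 each. The 1 probe set of Trf (chr9:103208876-103230286), 1425546_a_at, is annotated to both Trf and Srprb, and it is called Trf or Srprb below.

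Values are the log2 intensities the authors deposited, for which the submitters' processing notes name RMA, and on which a difference of 1 is a 2-fold difference, and all SDs are over the 2 mice of a group. The 40th percentile of an array, below which a value was counted as dim, lay between 4.93 and 5.08. Tfrc 1422967_a_at (3.26 to 4.03) was dim on all 24 arrays and was not tested, and the 3 Tfrc control probe sets were dim throughout. Bmp6, Hamp2 1456289_at (4.58 to 5.28) and Scara5 1431336_at (4.80 to 5.40) stayed near the limit, above it on 5, 10 and 15 of the 24 arrays in that order. A p-value sets a difference between groups against the spread between mice of the same group, estimated for each probe set over all 12 groups together. With 2 mice a group, the number of arrays limits the precision. Liver is a mixture of cells, and in such samples fewer cells of a type and less RNA per cell cannot be told apart.

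The arrays followed their labels. Nr1i3 ran from 5.03 to 5.60 in human CAR livers and from 5.06 to 5.40 in knockout livers, against 6.84 to 8.0 in wild-type livers, and Cyp2b10, the classical CAR target (1422257_s_at), stayed between 4.46 and 5.62 on all 8 knockout arrays. Human CAR and knockout arrays overlapped in Nr1i3 but not in Cyp2b10, which ran from 6.90 to 11.5 in human CAR livers. It was at 8.10 and 8.68 there already on corn oil, above the wild-type corn oil livers. In wild-type livers Cyp2b10 was at 7.23 and 8.65 after CITCO, against 4.55 and 4.71 after corn oil. CITCO livers with mouse CAR alone were thus also above their controls. Hepatocyte markers averaged 11.2 to 11.8 on every array. Knockout phenobarbital replicate 2 and human CAR phenobarbital replicate 1 stood apart. The median of their correlations with all other arrays was 0.957 and 0.935, while those of the remaining 22 arrays ran from 0.959 to 0.982. Their Kupffer cell markers averaged 6.45 and 6.76 (6.74 to 7.93 elsewhere), and their endothelial markers 6.17 and 6.14 (6.31 to 6.79 elsewhere). Their cholangiocyte markers averaged 5.47 and 6.09 (4.99 to 5.33 elsewhere) and their neutrophil markers 5.60 and 6.80 (5.19 to 5.77 elsewhere). Hepatocyte markers were at 11.8 on the knockout array, above the 11.2 to 11.7 of the other 22. For the member genes, results that use the arrays that stood apart are given with and without them below where a call differs. Results for the other gene lists and the cell type markers are given only with all arrays.

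Over the 12 groups, 7 of the 17 tested probe sets varied between groups by the moderated F test of limma, against 7.75% of all probe sets tested. They were both of Hamp (adjusted p = 0.0305 and 0.0238), Hamp2 1436643_x_at (0.00144), Scara5 1451204_at (0.0456), Tfrc 1422966_a_at and 1452661_at (0.00842 and 0.0219) and Trf or Srprb (0.0376). The largest range of group means was that of Scara5, at 3.81, followed by Hamp2 at 2.38 and Tfrc 1452661_at at 2.24. Fth1 1448771_a_at (0.0546) and Id1 (0.0785) did not pass.

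By ligand, 4 of the 17 were called for TCPOBOP in wild type, 2 higher and 2 lower, where 6.05% of all probe sets were called. For phenobarbital in wild type 1 was higher and 1 lower (1.38% of all called). In knockout mice Hamp2 alone was called, higher, for phenobarbital (0.447% of all called) and for CITCO (0.0339% of all called). No member was called for CITCO in wild type (0.061% of all called) or for TCPOBOP in knockout (0.0881% of all called), where 0 and 1 had an unadjusted p under 0.05 in limma. In human CAR mice 0 were called for TCPOBOP, phenobarbital and CITCO, where 0%, 0.867% and 0.0881% of all probe sets were called, and 0, 1 and 1 members had an unadjusted p under 0.05 in limma (1014 of all probe sets for TCPOBOP). The median change of the 17 on TCPOBOP in wild type was -0.0025, against 0.0087 over all probe sets.

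By genotype on corn oil, 0 of the 17 were called for knockout against wild type (0.217% of all called), for human CAR against wild type (0.0813%) or for human CAR against knockout (0.115%). Unadjusted p-values under 0.05 numbered 0, 3 and 4 there in limma. Averaged over the 4 treatments, 4 were called for knockout against wild type, 2 in each direction, where 5.72% of all probe sets were called. For human CAR against wild type 5 were called, 3 higher and 2 lower (2.79% of all called), and for human CAR against knockout 0 (0.23% of all called, 1 member with an unadjusted p under 0.05).

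The difference in the TCPOBOP change between wild type and knockout was called for 2 members, 1 in each direction (1.96% of all called). For the other differences between genotypes in a ligand's change, 0 members were called. The shares of all probe sets called were 0.176% for phenobarbital and 0.0203% for CITCO between wild type and knockout. Between human CAR and knockout they were 0% for TCPOBOP, 0.0203% for phenobarbital and 0.0406% for CITCO. Members with an unadjusted p under 0.05 numbered 5, 2, 4, 4 and 4 in these 5 comparisons in limma, and 728 of all probe sets had one for TCPOBOP between human CAR and knockout.

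**Figure D1:**
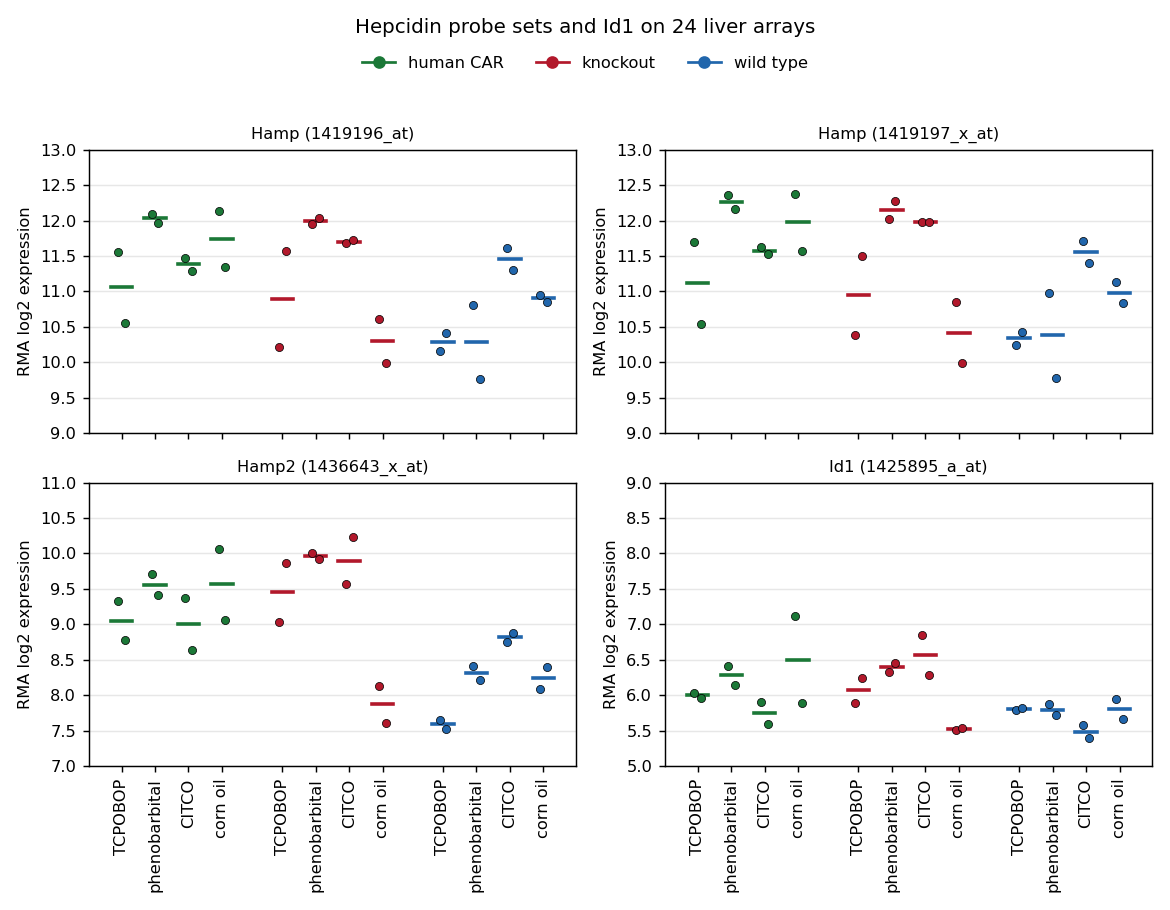
Log2 RMA values of the hepcidin probe sets and of Id1 on each of the 24 arrays; points are mice, bars are means of the 2 mice of a group, and genotypes run from human CAR through knockout to wild type. Hamp2 (1436643_x_at) lay at 9.04 to 10.2 on the 6 arrays of ligand-treated knockout mice, against 7.61 and 8.13 on the knockout corn oil arrays.

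The signal of the Hamp2 probe set 1436643_x_at was higher in knockout livers after phenobarbital and after CITCO than after corn oil. This probe set may read both hepcidins, and values given for Hamp2 below are from it. The other Hamp2 probe set, 1456289_at, stayed near the dim limit. Its knockout means were 4.74 on corn oil, 5.06 on phenobarbital and 4.99 on CITCO. In the same order they were 4.87, 5.08 and 4.90 in wild-type and 4.89, 5.07 and 4.91 in human CAR livers. The moderated F test of limma over the groups was not passed (adjusted p = 0.855). On 1436643_x_at the knockout phenobarbital livers had 10.01 and 9.92, the CITCO livers 9.57 and 10.23 and the TCPOBOP livers 9.04 and 9.86, against 8.13 and 7.61 in corn oil livers. All 6 ligand-treated livers were above both corn oil livers. The change was 2.09 on the log2 scale for phenobarbital (SE 0.34, 4.27-fold, limma adjusted p = 0.0117) and 2.03 for CITCO (SE 0.34, 4.08-fold, adjusted p = 0.0472). For TCPOBOP it was 1.58 (SE 0.34) and did not pass (adjusted p = 0.112). These 3 comparisons share the same pair of corn oil livers, and Hamp2 there averaged 7.87 ± 0.37 (SD, n = 2).

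Both calls ended when some single livers were left out, while the changes stayed between 1.70 and 2.36. Leaving out a liver leaves 1 mouse in its group and lowers the precision. A lost call therefore does not show that 1 liver carried the change. The phenobarbital call ended without corn oil replicate 1 (2.36, adjusted p = 0.0654) or 2 (1.83, 0.135) and without phenobarbital replicate 2 (2.14, 0.116), which is one of the arrays that stood apart. The CITCO call ended without corn oil replicate 1 (2.29, 0.0781) or 2 (1.76, 0.419) and without CITCO replicate 2 (1.70, 0.456). Kupffer cell markers also differed in the same comparisons. Their mean was 7.12 and 6.45 in knockout phenobarbital livers, 7.08 and 7.20 in CITCO livers and 7.29 and 6.74 in TCPOBOP livers. The shared knockout corn oil livers had 7.93 and 7.75, against 7.76 and 7.31 in wild-type corn oil livers. Marco was higher in knockout than in wild type on corn oil already (1.73, limma adjusted p = 0.00402). Of 14 Kupffer cell probe sets of 10 genes, 4 were called lower than on corn oil with phenobarbital (Cd68, Cd5l, C1qc and Marco). With CITCO 0 were, and with TCPOBOP 1 was (Marco). The shares of all probe sets called were 0.447%, 0.0339% and 0.0881% in that order. These marker calls include phenobarbital replicate 2 and were not examined without it. The part of Kupffer cells in the Hamp2 result was not tested.

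Hamp had the same order in knockout livers, but no change passed the test. On 1419196_at it was at 11.95 and 12.04 in phenobarbital livers, 11.68 and 11.72 in CITCO livers and 10.21 and 11.57 in TCPOBOP livers, against 10.62 and 9.99 in corn oil livers. Phenobarbital and CITCO livers were all above the corn oil livers, and a TCPOBOP liver lay between them. The differences from corn oil were 1.69 (SE 0.40, limma adjusted p = 0.0724) for phenobarbital, 1.40 (SE 0.40, 0.295) for CITCO and 0.59 (SE 0.40, 0.589) for TCPOBOP. On 1419197_x_at, which may read both hepcidins, the differences were 1.73, 1.56 and 0.53 (adjusted p = 0.0757, 0.260 and 0.648).

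In wild-type livers the hepcidins were not called for any ligand. Hamp2 was at 7.66 and 7.52 in TCPOBOP livers, 8.41 and 8.22 in phenobarbital livers and 8.76 and 8.88 in CITCO livers, against 8.09 and 8.40 in corn oil livers. The TCPOBOP livers were, with 1 knockout corn oil liver, the lowest 3 of the 24, and lay below both wild-type corn oil livers, with a difference of -0.66 (SE 0.34, limma adjusted p = 0.291). Hamp (1419196_at) was at 10.16 and 10.41 after TCPOBOP, 10.81 and 9.76 after phenobarbital and 11.61 and 11.30 after CITCO, against 10.95 and 10.86 after corn oil. On this probe set Hamp was lower than on corn oil in all 4 TCPOBOP and phenobarbital livers and higher in both CITCO livers. On 1419197_x_at phenobarbital livers (10.98 and 9.79) overlapped the corn oil livers (11.13 and 10.84). None of the 3 differences passed: they were -0.62 for TCPOBOP, -0.62 for phenobarbital (adjusted p = 0.532) and 0.55 for CITCO (adjusted p = 0.774), each with an SE of 0.40.

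The TCPOBOP change of Hamp2 differed between the genotypes. It was 1.58 in knockout and -0.66 in wild-type livers, and the difference, coded as wild type minus knockout, was -2.24 (SE 0.48, limma adjusted p = 0.0183). That call ended without any one of 4 arrays, replicate 2 of wild-type corn oil (-2.08, 0.0918), of wild-type TCPOBOP (-2.17, 0.087), of knockout corn oil (-1.97, 0.0982) and of knockout TCPOBOP (-1.82, 0.110), and held without the other 4. The same difference was -1.21 for Hamp 1419196_at (SE 0.57, adjusted p = 0.409). For phenobarbital the differences were -2.03 for Hamp2 (SE 0.48, adjusted p = 0.120) and -2.31 for Hamp 1419196_at (SE 0.57, 0.163), so they were of similar size and did not pass. For CITCO the Hamp2 difference was -1.46 (SE 0.48, adjusted p = 0.733).

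In human CAR livers hepcidin was high already on corn oil, and no ligand changed it past the threshold. Hamp2 was at 9.33 and 8.77 in TCPOBOP livers, 9.71 and 9.41 in phenobarbital livers and 9.37 and 8.64 in CITCO livers, against 10.07 and 9.06 in corn oil livers. Hamp (1419196_at) was at 11.56 and 10.56 after TCPOBOP, 12.09 and 11.97 after phenobarbital and 11.48 and 11.29 after CITCO, against 12.13 and 11.35 after corn oil. Treated and corn oil livers overlapped for every ligand on both genes. On corn oil, Hamp2 averaged 9.57 ± 0.71 in human CAR livers, against 7.87 ± 0.37 in knockout and 8.25 ± 0.22 in wild-type livers (SD, n = 2 each). The difference on corn oil was 1.69 from knockout (SE 0.34, limma adjusted p = 0.0729) and 1.32 from wild type (SE 0.34, 0.241), and neither passed. The CITCO change of Hamp2, human CAR minus knockout, was -2.59 (SE 0.48, adjusted p = 0.0754).

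Over all treatments, Hamp2 was higher in both genotypes that lack mouse CAR than in wild type. Its 8 human CAR livers ran from 8.64 to 10.07, its 8 knockout livers from 7.61 to 10.23 and its 8 wild-type livers from 7.52 to 8.88. All genotypes overlapped. Averaged over the 4 treatments, Hamp2 was higher by 1.05 in human CAR (SE 0.17, 2.08-fold, limma adjusted p = 0.00238) and by 1.05 in knockout (SE 0.17, 2.08-fold, adjusted p = 0.00104). Both calls held when each of the 16 arrays was left out in turn. Neither held when the TCPOBOP groups were left out of the average, which gave 0.92 for human CAR (adjusted p = 0.0536) and 0.79 for knockout (0.0527). For knockout livers the average does not describe the corn oil groups, where Hamp2 differed from wild type by -0.38 (SE 0.34, adjusted p = 0.956).

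Averaged over the treatments, Hamp was higher in human CAR than in wild-type livers, but not on each treatment: on CITCO the means of 1419196_at were 11.38 in human CAR and 11.45 in wild-type livers, and those of 1419197_x_at were 11.58 and 11.56. On 1419196_at the 8 livers ran from 10.6 to 12.1 in human CAR, from 9.99 to 12.0 in knockout and from 9.76 to 11.6 in wild type. Against wild type the human CAR difference was 0.82 (SE 0.20, limma adjusted p = 0.0374), and on 1419197_x_at it was 0.91 (SE 0.21, 0.0269). The first call held only without wild-type phenobarbital replicate 1 or without human CAR corn oil, TCPOBOP or phenobarbital replicate 2, and ended without any other of the 16 arrays (0.69 to 0.86, adjusted p up to 0.107). The second held without those 4 arrays and without wild-type CITCO replicate 1, human CAR phenobarbital replicate 1 or human CAR CITCO replicate 2, and ended without any of the other 9 (0.76 to 0.95, adjusted p up to 0.0767). Without the 2 arrays that stood apart the first call ended (0.81, adjusted p = 0.0613). Both calls also ended when the average left out the corn oil groups (0.82 and 0.89), the TCPOBOP groups (0.84 and 0.96) or the phenobarbital groups (0.51 and 0.59), with adjusted p from 0.0643 to 0.409. Knockout against wild type was 0.49 and 0.56 on the 2 probe sets (SE 0.20 and 0.21, adjusted p = 0.197 and 0.159).

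The genes that regulate hepcidin gave few calls. Id1, a target of BMP and SMAD signalling that responds to iron together with hepcidin, was at 6.33 and 6.46 in knockout phenobarbital livers, 6.85 and 6.29 in CITCO livers and 5.89 and 6.24 in TCPOBOP livers, against 5.51 and 5.54 in corn oil livers. All 6 ligand-treated knockout livers were above the corn oil livers, as with Hamp2. The differences were 0.87 for phenobarbital (SE 0.27, limma adjusted p = 0.116), 1.04 for CITCO (SE 0.27, 0.234) and 0.54 for TCPOBOP (SE 0.27, 0.466), and none passed. In human CAR livers Id1 was at 7.12 and 5.89 on corn oil, the widest gap between the mice of any group, and at 5.60 to 6.41 on the ligands. In wild-type livers it stayed between 5.39 and 5.94. Bmp6 ran from 4.66 to 5.24 over the 24 arrays, near the dim limit, and no change in it was measurable at that signal.

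Tfr2, a sensor of iron-loaded transferrin on hepatocytes that is needed for full hepcidin expression, fell slightly with TCPOBOP in wild-type livers. On 1425381_a_at TCPOBOP livers had 9.82 and 9.63, against 10.23 and 10.17 in corn oil livers, with no overlap. The change was -0.48 (SE 0.13, 0.719-fold, limma adjusted p = 0.0390). That call ended without any one of the 4 arrays (-0.57 to -0.38, adjusted p 0.062 to 0.247), and the difference of the change, wild type minus knockout, was -0.25 (SE 0.18, 0.704). The other Tfr2 probe set, 1459994_x_at, ran from 8.83 to 9.67 over all arrays and was not called in any comparison.

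Transferrin receptor 1 (Tfrc), the main entry route for transferrin iron, was higher in wild-type livers after TCPOBOP. On 1422966_a_at the TCPOBOP livers had 6.00 and 6.66, the phenobarbital livers 5.95 and 6.38 and the CITCO livers 5.74 and 5.74, against 5.42 and 5.67 in corn oil livers. All ligand-treated livers were above the corn oil livers. The TCPOBOP change of 0.78 passed (SE 0.18, 1.72-fold, limma adjusted p = 0.0129), and those of 0.62 for phenobarbital (0.115) and 0.20 for CITCO (0.833) did not. The TCPOBOP call ended without corn oil replicate 1 (0.66, adjusted p = 0.134) or TCPOBOP replicate 2 (0.46, 0.193). On the other tested probe set, 1452661_at, the TCPOBOP livers had 7.84 and 8.50 and the phenobarbital livers 7.43 and 8.24, against 6.54 and 7.23 in corn oil livers. The CITCO livers, with 7.04 and 6.72, lay within the range of the corn oil livers on this probe set. There the TCPOBOP change was 1.28 (SE 0.40) with an adjusted p of 0.0694, which became 0.00847 without the 2 arrays that stood apart.

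In knockout livers Tfrc was not higher after TCPOBOP than after corn oil. On 1422966_a_at TCPOBOP livers had 5.21 and 5.22, against 5.38 and 5.58 in corn oil livers, a difference of -0.27 (SE 0.18, limma adjusted p = 0.578). The TCPOBOP change was thus -0.27 in knockout and 0.78 in wild type, and the difference, wild type minus knockout, was 1.05 (SE 0.25, adjusted p = 0.0399). That call ended without any one of the 8 arrays except wild-type TCPOBOP replicate 1 (0.72 to 1.17, adjusted p 0.059 to 0.194). On 1452661_at the same difference was 1.75 (SE 0.56, adjusted p = 0.151), and 0.0216 without the 2 arrays that stood apart. In human CAR livers the TCPOBOP change was -0.18 on 1422966_a_at (SE 0.18, 0.864). Phenobarbital livers were above corn oil livers in both genotypes on 1422966_a_at, with 5.80 and 5.80 against 5.58 and 5.49 in human CAR and 5.69 and 5.97 against 5.38 and 5.58 in knockout. Those differences were 0.26 and 0.35 (SE 0.18 each) and did not pass in limma (adjusted p = 0.409 and 0.273). The phenobarbital change, wild type minus knockout, was 0.27 (SE 0.25, adjusted p = 0.784). On 1452661_at human CAR phenobarbital livers (6.89 and 7.40) were also above corn oil livers (6.80 and 6.64), while the knockout livers overlapped.

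Averaged over the treatments, Tfrc was lower in both genotypes that lack mouse CAR than in wild type. On 1452661_at human CAR livers ran from 5.96 to 7.40 and knockout livers from 5.83 to 7.92, against 6.54 to 8.50 in wild-type livers. The genotypes overlapped. The difference from wild type was -0.86 for human CAR (SE 0.20, limma adjusted p = 0.0260) and -0.95 for knockout (SE 0.20, 0.00781). On 1422966_a_at it was -0.44 (SE 0.09, 0.0130) and -0.47 (SE 0.09, 0.00400). Both knockout calls and the human CAR call on 1422966_a_at held without each of the 16 arrays, while the human CAR call on 1452661_at ended without wild-type corn oil, TCPOBOP or phenobarbital replicate 2, wild-type CITCO replicate 1, human CAR corn oil or CITCO replicate 2, or human CAR TCPOBOP or phenobarbital replicate 1 (-0.84 to -0.76, adjusted p up to 0.0806). Without the TCPOBOP groups none of the 4 passed: 1422966_a_at gave -0.26 in human CAR and -0.25 in knockout (adjusted p = 0.365 and 0.309), and 1452661_at gave -0.48 and -0.62 (0.480 and 0.249). Without the phenobarbital groups the human CAR call on 1452661_at ended too (-0.92, 0.0695). On corn oil alone the differences on 1452661_at were -0.16 for human CAR and -0.21 for knockout (SE 0.40 each).

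Erythroid cells also express Tfrc strongly. Of 16 red cell and erythroid markers, 5 were tested, and their mean ran from 5.83 to 6.26 in human CAR, 5.76 to 6.15 in knockout and 5.98 to 6.27 in wild-type livers. Of the 5, Alas2 and Car1 were lower in knockout than in wild type over the treatments, where 5.72% of all probe sets were called. By limma the differences were -0.78 (SE 0.11, adjusted p = 0.000496) and -0.22 (SE 0.06, adjusted p = 0.0448). Between human CAR and wild type 0 were called, where 2.79% of all were. Alas2 was higher in human CAR than in knockout livers (0.78, SE 0.11, limma adjusted p = 0.00374), where 0.23% of all were called. The part of erythroid cells in the Tfrc difference was not tested.

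**Figure D2:**
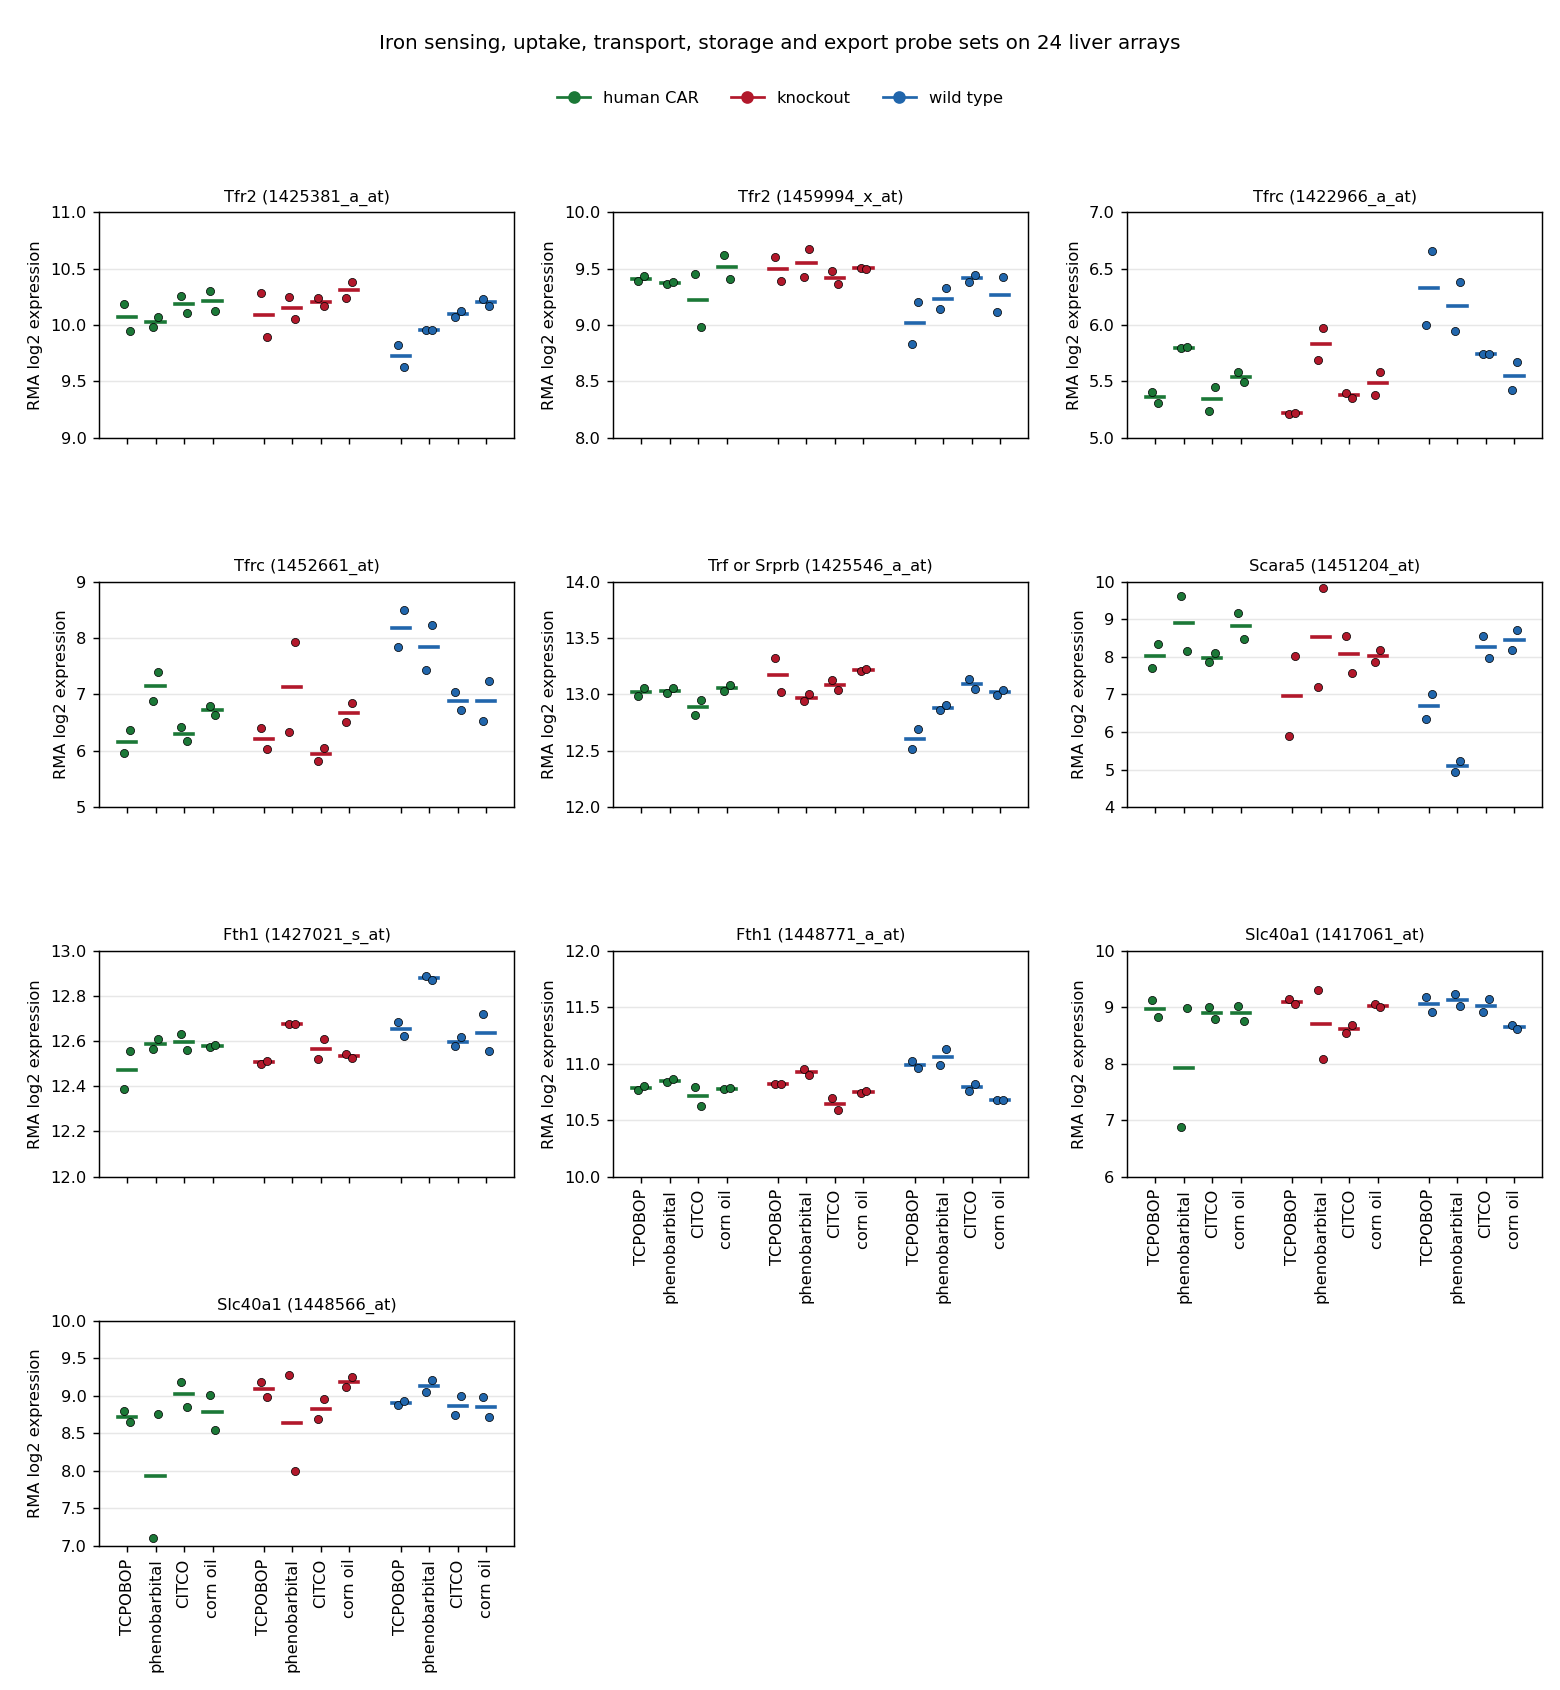
Log2 RMA values of the 10 tested probe sets that exceeded 6 on at least 1 array for Tfr2, Tfrc, Trf or Srprb, Scara5, Fth1 and Slc40a1 on each array, with the range of the axis set per probe set; points are mice, bars are means of 2 mice, and genotypes run from human CAR through knockout to wild type. Scara5 was lowest on the wild-type phenobarbital arrays (4.94 and 5.23), and both Slc40a1 probe sets were lowest on the human CAR and knockout phenobarbital arrays that stood apart.

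Trf encodes transferrin, the iron carrier of plasma that hepatocytes secrete, and Srprb a subunit of the signal recognition particle receptor. Their shared probe set was at 12.52 and 12.69 in wild-type TCPOBOP livers, against 12.996 and 13.04 in wild-type corn oil livers, with no overlap. The change was -0.41 (SE 0.10, 0.751-fold, limma adjusted p = 0.0222). It ended as a call without either corn oil liver (-0.44, 0.0865 without replicate 1 and -0.39, 0.135 without replicate 2) or TCPOBOP replicate 1 (-0.33, 0.196). The other 22 arrays lay between 12.8 and 13.3. Over the treatments knockout livers were 0.21 above wild type (SE 0.05, adjusted p = 0.0209), a call that ended without knockout TCPOBOP or CITCO replicate 1, wild-type TCPOBOP or phenobarbital replicate 1 or wild-type CITCO replicate 2 (0.17 to 0.20, adjusted p up to 0.0579) and without the TCPOBOP groups (0.09, 0.602). The signal cannot be assigned to Trf or to Srprb from these values.

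Scara5, a scavenger receptor that binds ferritin, had the largest change of the set. On 1451204_at wild-type phenobarbital livers had 4.94 and 5.23 and TCPOBOP livers 6.35 and 7.01, against 8.18 and 8.71 in corn oil livers. The phenobarbital livers were the lowest of all 24, 1 of them dim, and the other 22 ran from 5.89 to 9.83. The change was -3.36 (SE 0.72, limma adjusted p = 0.0263), and with the phenobarbital values at or near the dim limit its exact size is not known. Without any one of the 4 arrays the call ended while the change stayed between -3.62 and -3.10 (adjusted p 0.0928 to 0.200). The TCPOBOP difference in wild type was -1.76 (SE 0.72, adjusted p = 0.176), and the adjusted p was 0.0401 without the 2 arrays that stood apart. CITCO livers, with 8.55 and 7.96, overlapped the corn oil livers.

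In some groups of the genotypes that lack mouse CAR the mice were far apart for Scara5. Human CAR phenobarbital livers had 9.62 and 8.16, against 9.18 and 8.46 in corn oil livers, while TCPOBOP livers had 7.70 and 8.34 and CITCO livers 7.85 and 8.10. Knockout phenobarbital livers had 7.20 and 9.83 and TCPOBOP livers 5.89 and 8.02, against 7.86 and 8.18 in corn oil livers. The highest 2 of the 24 values, 9.83 and 9.62, were on the arrays that stood apart. The phenobarbital change, wild type minus knockout, was -3.86 (SE 1.02, limma adjusted p = 0.212), so a difference between the genotypes was not shown. Leaving out 1 array put it between -5.17 and -2.55, and without knockout phenobarbital replicate 1 it passed (-5.17, adjusted p = 0.0122). Averaged over the treatments, Scara5 was 1.31 above wild type in human CAR (SE 0.36, adjusted p = 0.0655) and 0.78 above it in knockout (SE 0.36, 0.268). The human CAR difference passed without the 2 arrays that stood apart (1.13, adjusted p = 0.0311). The other Scara5 probe set, 1431336_at, stayed near the dim limit and did not follow these values.

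Fth1, the heavy chain of ferritin, the main intracellular iron store, rose slightly in wild-type livers with TCPOBOP and phenobarbital on 1448771_a_at. There TCPOBOP livers had 11.02 and 10.96 and phenobarbital livers 10.99 and 11.13, against 10.68 and 10.68 in corn oil livers, with no overlap. The changes were 0.32 (SE 0.09, 1.24-fold, limma adjusted p = 0.0387) and 0.38 (SE 0.09, 1.30-fold, 0.0354). Both calls ended without any one of their 4 arrays, with adjusted p from 0.111 to 0.195 for TCPOBOP and from 0.0847 to 0.347 for phenobarbital. In knockout phenobarbital livers the probe set was at 10.96 and 10.90, against 10.74 and 10.76 in corn oil livers, a difference of 0.18 (SE 0.09, 0.253). The other Fth1 probe set, 1427021_s_at, whose suffix marks probes shared by related transcripts, ran from 12.4 to 12.9 and was not called. On phenobarbital in wild type its difference was 0.24 (SE 0.09, limma adjusted p = 0.207). The wild-type TCPOBOP livers there, with 12.68 and 12.62, overlapped the corn oil livers, with 12.72 and 12.56, so the TCPOBOP rise was not seen on this probe set.

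Slc40a1 (ferroportin) did not differ past the threshold in any comparison. Its 2 probe sets were at 6.88 and 7.11 on human CAR phenobarbital replicate 1 and at 8.08 and 8.0 on knockout phenobarbital replicate 2, against 8.54 to 9.31 and 8.55 to 9.28 on the other 22 arrays. The 2 low arrays are those that stood apart. They also had low Kupffer cell and endothelial markers, as given above, and macrophages such as Kupffer cells are known for high ferroportin. Kupffer cell markers were also low, at 6.74, on knockout TCPOBOP replicate 2, where Slc40a1 was at 9.05 and 8.98. The part of these cells in the low Slc40a1 values was not tested. The phenobarbital difference in human CAR livers was -0.96 and -0.84 on the 2 probe sets (SE 0.45 and 0.40, limma adjusted p = 0.244 and 0.251).

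**Figure D3:**
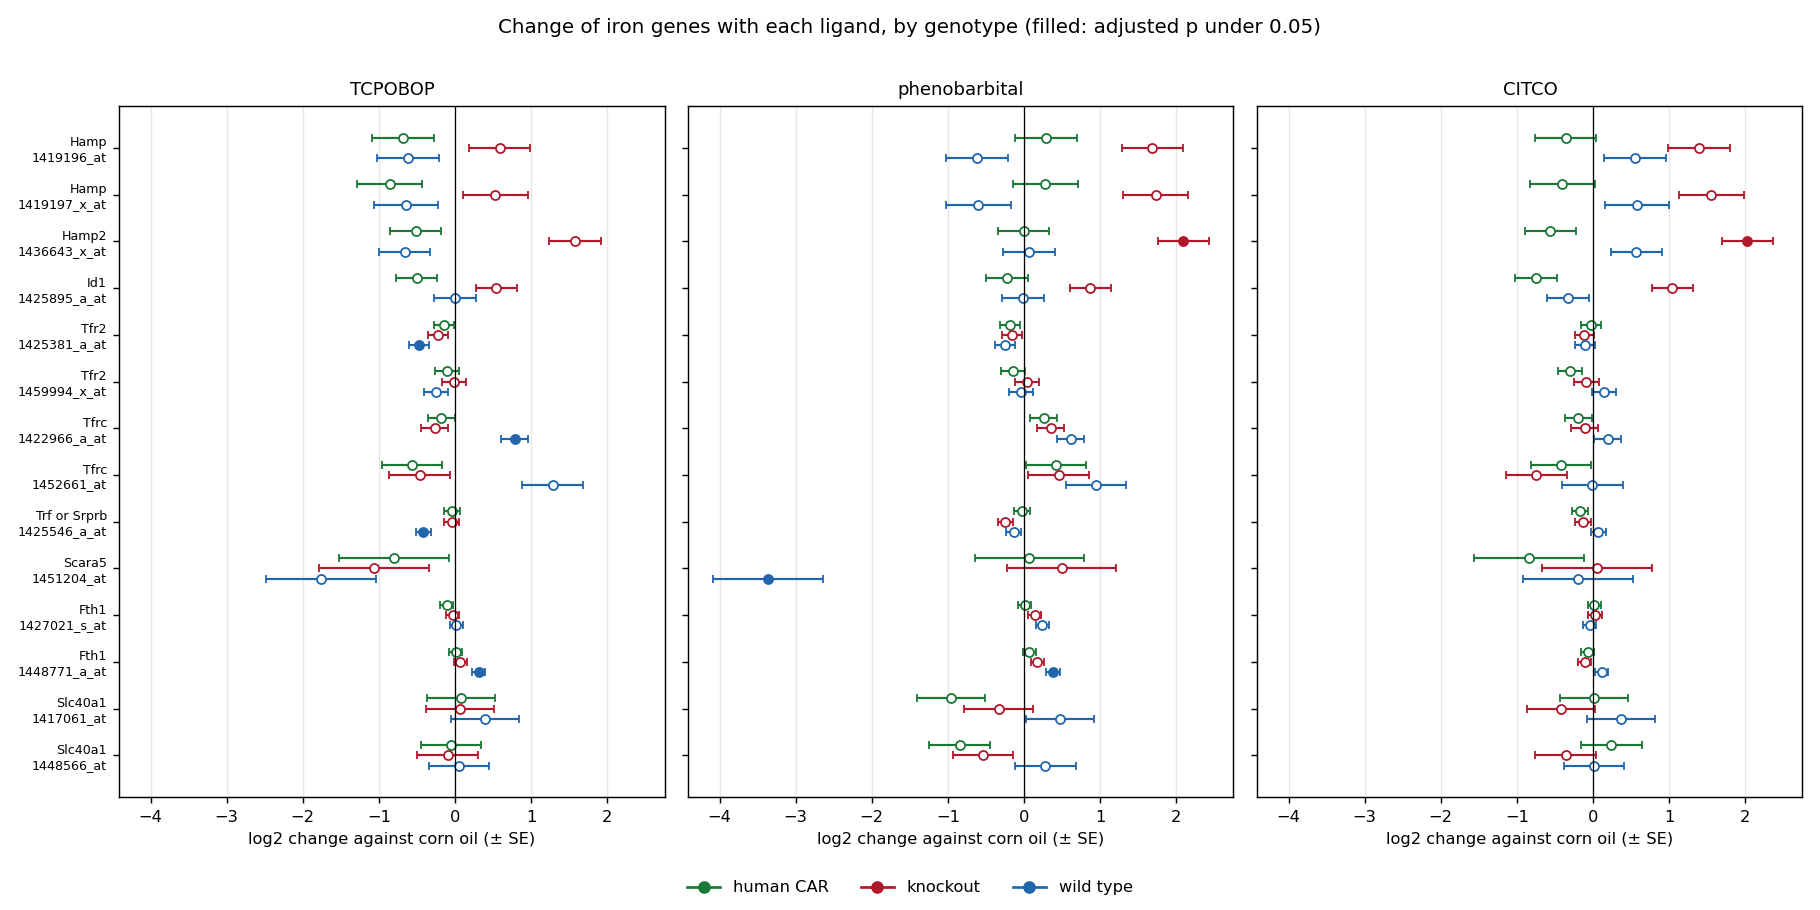
Log2 change against corn oil of the 14 tested member probe sets that exceeded 6 on at least 1 array, for TCPOBOP, phenobarbital and CITCO within each genotype; points are limma estimates, bars are standard errors, and filled points passed the adjusted p threshold of 0.05. Hamp2 passed in knockout for phenobarbital and CITCO, and Scara5, Fth1, Tfrc, Tfr2 and Trf or Srprb passed in wild type for at least 1 ligand.

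**Figure D4:**
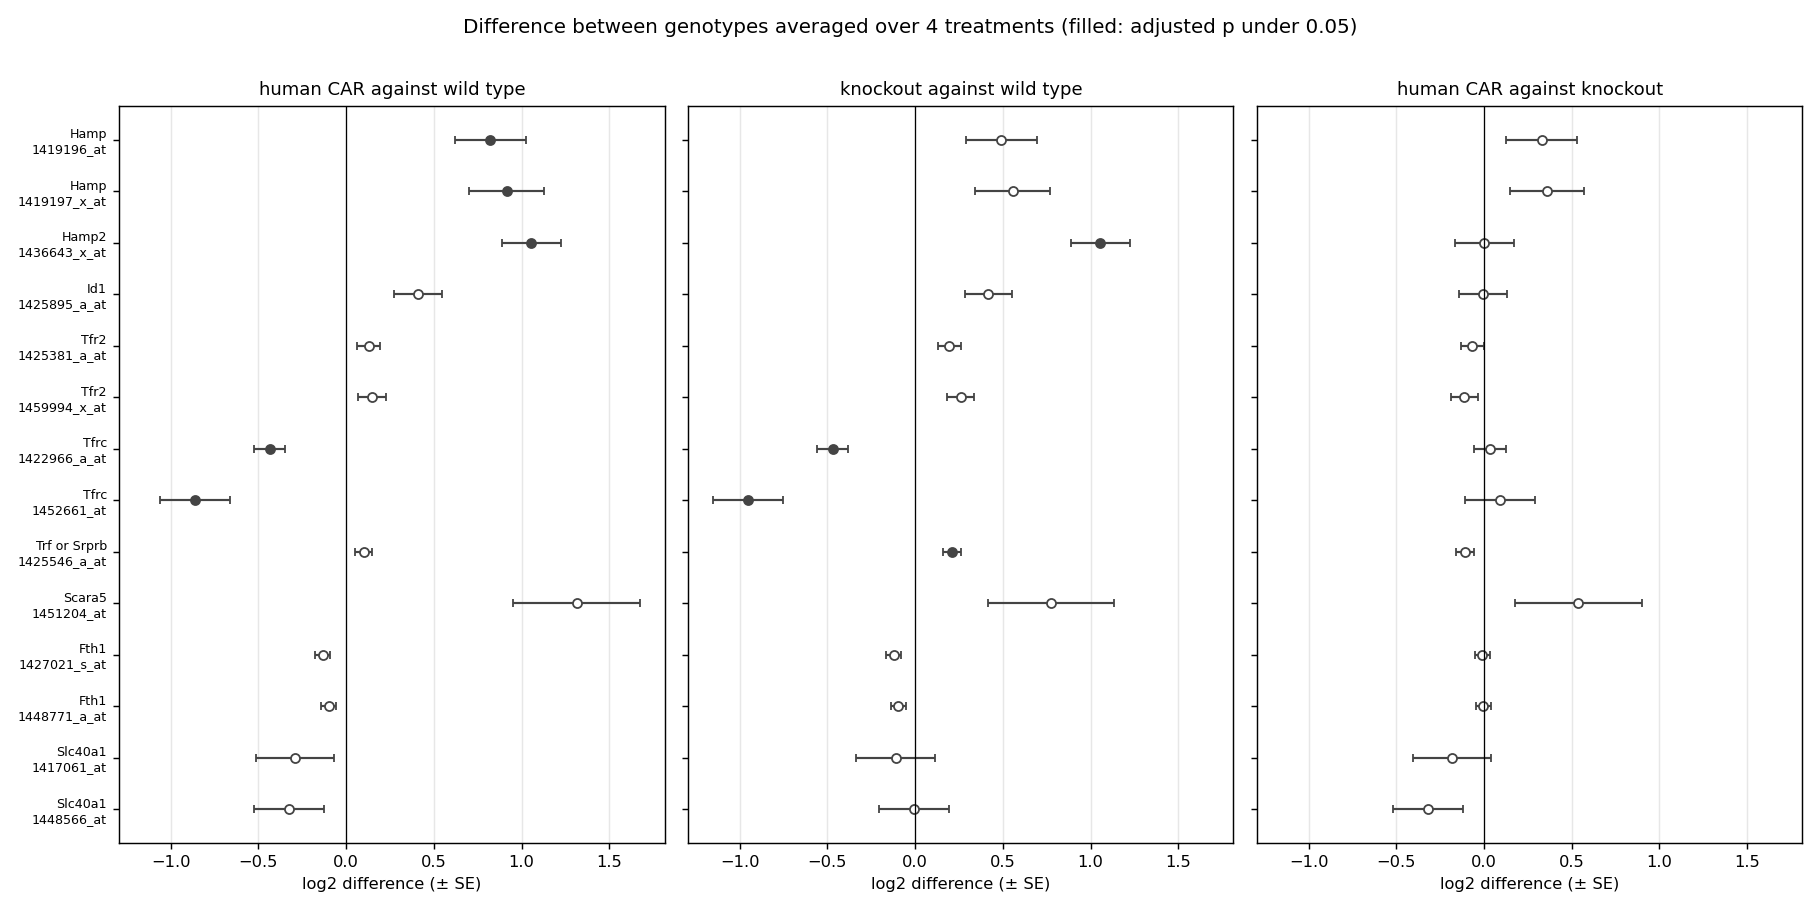
Log2 difference of the same 14 probe sets between genotypes, averaged over the 4 treatments; points are limma estimates, bars are standard errors, and filled points passed the adjusted p threshold of 0.05. Hamp2 (1.05) and both Tfrc probe sets passed for both genotypes that lack mouse CAR against wild type, and 0 passed for human CAR against knockout.

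Other genes of the hepcidin and iron pathways were taken from lists. Of 35 tested probe sets of 23 BMP and SMAD pathway genes, 3 fell with TCPOBOP in wild type: Smad4, the shared SMAD (-0.60), the receptor Acvr2b (-0.52) and Tfr2. Here and for the lists that follow, the share called over all probe sets was 6.05% for TCPOBOP and 1.38% for phenobarbital in wild type. The TCPOBOP counts of all these lists, the iron list among them, lie near or little above that share. In no other wild-type or knockout ligand comparison was a probe set of the BMP and SMAD list called. Acvr2b fell with phenobarbital in human CAR livers (-0.65, limma adjusted p = 0.0256), 1 of which is an array that stood apart. Over the treatments Hfe was lower (-0.26, limma adjusted p = 0.0251) and Acvr2b higher (0.24, 0.0288) in knockout than in wild-type livers. In that comparison 5.72% of all probe sets were called. Of 21 probe sets of 10 interleukin 6 and STAT3 genes, 2 fell with TCPOBOP in wild type, the receptor Il6ra (-0.93, adjusted p = 0.0361) and the hepatocyte factor Cebpa (-0.55, 0.0342), both known to act in hepcidin expression. The median changes of these lists were -0.14 and -0.42, against 0.01 over all probe sets. The interleukin 6 and STAT3 list also had a median of -0.47 with phenobarbital in wild type and of -0.31 with TCPOBOP in knockout, where 0 of its probe sets were called. Il6ra was higher over the treatments in human CAR (0.50) and in knockout (0.75) than in wild type (adjusted p = 0.0396 and 0.00152).

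Of 48 probe sets of 27 genes of iron uptake, storage, export and sensing, a list that holds most members, 4 rose and 1 fell with TCPOBOP in wild type. Beside Tfrc, Fth1 and Tfr2 these were Slc25a37, the mitochondrial iron importer mitoferrin 1 (0.99, limma adjusted p = 0.00312), and Aco1, the iron regulatory protein and cytosolic aconitase (0.86, 0.0377). With phenobarbital in wild type 2 rose and 1 fell, and Slc25a37 rose most (1.41, adjusted p = 0.000458). Over the treatments Slc25a37 was lower than in wild type in human CAR (-0.39, 0.0297) and in knockout (-0.54, 0.00175), the same direction as Tfrc. In knockout livers Hamp2 was the 1 call of the list with phenobarbital and with CITCO.

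Of 25 probe sets of 20 haem genes, 2 fell with TCPOBOP in wild type: Uros, an enzyme of haem synthesis (-0.65), and Lrp1, the receptor for haem bound to hemopexin (-1.22, limma adjusted p = 0.000153). Lrp1 also fell with phenobarbital (-0.84, adjusted p = 0.0130). Alas1, the rate-limiting enzyme of haem synthesis in liver, was lower in knockout than in wild type over the treatments on 2 probe sets (-0.996 and -0.77, adjusted p = 0.0197 and 0.0145). In that comparison Ppox was also lower (-0.28, adjusted p = 0.0259) and Lrp1 was higher (0.40, 0.00579). Of 34 acute phase probe sets of 24 genes, 3 fell with TCPOBOP in wild type, both of Saa4 (-1.36 and -0.94) and Itih3 (-0.61), and Saa4 also fell with phenobarbital (-1.13 and -1.10). No acute phase probe set was called with phenobarbital or CITCO in knockout livers. Over all probe sets 0.447% and 0.0339% were called there, and a count of 0 lies near those shares. The median of the list there was -0.25 and -0.09, against 0.03 and -0.0020 over all probe sets. With phenobarbital in human CAR livers the median was 0.51 and 0 were called, and the array with the high neutrophil markers is 1 of those 2 livers. Averaged over the treatments, Itih3 (0.48) was higher in human CAR than in wild type, where 2.79% of all probe sets were called. Serpina3n (0.70), Apcs (0.60) and Itih3 (0.55) were higher in knockout than in wild type, where 5.72% of all were called. The part of inflammation in the hepcidin values was not tested. Cd163, the macrophage receptor for haemoglobin bound to haptoglobin, was lower in human CAR than in knockout livers on corn oil (-1.23, adjusted p = 0.0355). Its CITCO change, human CAR minus knockout, was 1.87 (limma adjusted p = 0.0345).

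The probe sets whose values were most like those of a member over the 24 arrays were found by Pearson's correlation, as a description. Arrays share groups and the 2 that stood apart, so the points are not independent. Hamp (1419197_x_at) was closest to Ik (r = 0.83), Arhgap5 (0.80), Med1 (0.79) and Malat1 (0.76). Hamp2 (1436643_x_at) was closest to Arhgap5 (0.81), Igbp1 (0.79), Aass (0.79) and Malat1 (0.78). Hamp and Hamp2 correlated at 0.83, on probe sets that may read both, and at 0.84 between the plain Hamp probe set and Hamp2. Id1 correlated at 0.64 with Hamp and 0.73 with Hamp2. Scara5 was closest to Tars (0.86), Cxcl1 (0.83), Ik (0.83) and Egfr (0.82), and Tfrc (1452661_at) to Gadd45b (0.85), Tubb2a (0.85), Pla2g12a (0.84) and H2ax (0.83). Tfrc and Fth1 1448771_a_at correlated at 0.71.

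In the order of the 12 group means, few neighbours differed by more than their spread. For Hamp2 the means ran from 7.59 in wild-type TCPOBOP to 9.96 in knockout phenobarbital livers, and 2 of the 11 gaps between neighbours exceeded the pooled SD of 0.38. For Hamp 1419196_at, from 10.28 in wild-type TCPOBOP to 12.03 in human CAR phenobarbital livers, 1 of 11 gaps exceeded the pooled SD of 0.46. For Scara5, from 5.08 in wild-type phenobarbital to 8.89 in human CAR phenobarbital livers, 2 of 11 gaps exceeded the pooled SD of 0.84.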

How the data were processed

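Total RNA from the livers of 24 mice was extracted with TRIzol, labelled with biotin and hybridised to 1 array per mouse, per the labels' protocols. The authors deposited log2 values; RMA and R 2.15.0 are named in the submitters' processing notes. They ran from 2.03 to 14.1 with array medians of 5.41 to 5.51 and were used as deposited. Probe sets were named from the platform annotation supplied with the series (20380 with 1 gene symbol, 691 with several, 1555 not listed, 64 controls left out of tests). Gene positions and promoter windows are from RefSeq on GRCm38.p6, and 6 of the 10 members had a window in the table.

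Group means of the 12 groups were fitted over the 24 arrays in limma 3.58.1 under R 4.3.3, which left 12 residual degrees of freedom, and 21 comparisons were tested with moderated statistics, plus a moderated F test. The 14763 probe sets above the 40th percentile of their array on at least 2 arrays were tested, p-values were adjusted by Benjamini-Hochberg within a comparison over all of them, and an adjusted p under 0.05 was a call. The moderated tests were checked on simulated arrays with known changes. A dim filter passed by a probe set in its high group alone favours genes that differ, which bears on Bmp6, Hamp2 1456289_at and Scara5 1431336_at. RMA combines the probes of a set and sets all arrays to 1 distribution. Changes of dim probe sets may be understated.

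All probe sets of the 10 genes are named. From the lists of hepcidin regulators, iron, haem and acute phase genes up to 4 called genes per comparison are named, and the 4 most alike probe sets for Hamp, Hamp2, Scara5 and Tfrc. The members, lists, tests and alternatives were chosen with earlier results of these data known. Alternatives were 1 probe set per gene, other dim filters, cyclic loess, array weights, a block for the replicate number, a robust prior with a variance trend, fits on the arrays of the genotypes compared, and leaving out arrays. The averages without 1 treatment were added after the data were seen. No 2 arrays were copies: at most 0.0485% of values were equal over 276 pairs.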

Additional observations from a re-analysis of the deposited data

Results flagged for a closer look

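The TCPOBOP change differed between genotypes, by the interaction test in limma, for 2 probe sets of the set. For Hamp2 1436643_x_at the difference, wild type minus knockout, was -2.24 (SE 0.48, adjusted p = 0.0183): the change was 1.58 in knockout livers, where both TCPOBOP livers were above both corn oil livers, and -0.66 in wild-type livers, where both were below. For Tfrc 1422966_a_at it was 1.05 (SE 0.25, adjusted p = 0.0399): the change was -0.27 in knockout livers and 0.78 in wild-type livers, again without overlap in either. Of all probe sets tested, 1.96% had such a difference.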

How the results depend on the processing

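With 2 mice a group, most calls ended when some single liver was left out, and the cause of the changes listed here was not tested. Leaving out a liver leaves 1 mouse in its group, so a call can end while the estimate hardly moves. Fth1 1448771_a_at with TCPOBOP in wild type changed by 0.3152 with all arrays. Without corn oil replicate 1 or 2 it changed by 0.3155 or 0.3149, and the call ended. Counts of member calls by setting, where they moved, were as follows. With 1 probe set per gene they were 1 for TCPOBOP and 1 for phenobarbital in wild type, 1 for the difference of the TCPOBOP change between wild type and knockout, 3 for human CAR and 2 for knockout against wild type over the treatments, and 4 over the 12 groups, since fewer probe sets were tested. A variance trend with a robust prior gave 1 for phenobarbital in wild type, 0 for CITCO in knockout and 3 for human CAR over the treatments. Fits on the arrays of the genotypes compared gave 1 for phenobarbital in wild type, 0 for phenobarbital and 0 for CITCO in knockout, and 1 each for the differences of the TCPOBOP and phenobarbital changes between wild type and knockout. Array weights gave 1 for TCPOBOP and 3 for CITCO in knockout, 1 for human CAR against knockout on corn oil and 3 for human CAR against wild type over the treatments. With 2 mice a group these weights were equal for both mice of each group, so they weighted groups and could not lower the weight of a single array. Without the 2 arrays that stood apart phenobarbital in knockout had 0. CITCO in knockout had 0 with no dim filter and 0 with a stricter one. Averages without corn oil gave 7 and without TCPOBOP 0 for knockout against wild type, and human CAR against wild type had 0 without TCPOBOP and 2 without phenobarbital.

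Leaving out 1 array at a time gave 0 to 1 calls for TCPOBOP and 0 for phenobarbital in wild type, 0 to 4 for phenobarbital and 0 to 1 for CITCO in knockout, and 0 to 2 for phenobarbital and 0 to 1 for CITCO in human CAR. On corn oil it gave 0 to 1 for human CAR against wild type and 0 to 2 against knockout. For differences of changes it gave 0 to 2 (TCPOBOP) and 0 to 1 (phenobarbital) between wild type and knockout, and 0 to 1 (phenobarbital) and 0 to 2 (CITCO) between human CAR and knockout. Over the treatments it gave 2 to 8 for human CAR and 3 to 6 for knockout against wild type, and 2 to 10 over the 12 groups. The 1 change of sign was Scara5 with TCPOBOP in knockout, -1.06 with all arrays, which leaving out 1 array put between -2.13 (without TCPOBOP replicate 2) and 0.00188 (without TCPOBOP replicate 1).

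The replicate numbers did not pair the mice: over 66 pairs of groups the deviations of same-numbered mice correlated at -0.44 to 0.42 (median 0.04), over 0.1 in 15. With the replicate number as a block the CITCO count in knockout was 0 (Hamp2 2.03, adjusted p = 0.0508), Tfrc 1452661_at passed for TCPOBOP in wild type (adjusted p = 0.0400), and no other count of member calls moved by over 1.5 times. Bmp6 and the second probe sets of Hamp2 and Scara5 were too dim for small changes to be seen.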
